A study of Mus musculus with 2 samples.

Results

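The Pi16 and Clec3b adventitial fibroblasts, a set of cells chosen by the measured values of marker genes, were 504 of the 4397 cells of a GLPG0187 library and 355 of the 2961 cells of a vehicle library, or 859 of 7358 cells in all. A cell was a member when the values of Clec3b, Pi16, Dpep1 and Scara5 summed to at least 6 and to more than the sums of 2 competing marker sets in the same cell. The first competing set was Gdf10, Hsd11b1 and Lamc3, and the other was Prss35, Tbx20, Wif1 and Meox1. Members also had Myh11 below 10, C1qa, C1qb and C1qc summing to less than 5, Pecam1 and Cdh5 to less than 2, and Hp and Lcn2 to less than 10, limits on smooth muscle, macrophage, endothelial and acute-phase cells. The levels of these genes chose the cells, so they are given only as a description.

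The tissue was the root and ascending part of the aorta, taken at 16 weeks of age, digested with Liberase and elastase and profiled with the 10x Genomics 3' version 3 chemistry. Every mouse in both groups was Fbn1C1041G/+, a carrier of a mutant fibrillin-1 allele that serves as a model of Marfan syndrome, and no wild-type aorta was analysed here. From 6 to 16 weeks of age the mice received GLPG0187, described in the labels as an inhibitor of integrin alpha-v, or vehicle, every day. Each group was 1 library made from a pool of males and females, in equal numbers, so no group difference has a replicate check, and the drug cannot be told apart from the individual mice, their dissection or the preparation of the library. Because the pools held both sexes, members with Xist values and no values of 4 Y-linked genes (168 under GLPG0187 and 136 under vehicle) and members with Y-linked values and no Xist (252 and 166) came from different animals, and list medians and many gene values are also given in these Xist-only and Y-only members.

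The adventitia is the outer coat of the aorta, where fibroblasts lie among collagen bundles, small vessels and nerves. Fibroblasts that carry Pi16, which encodes a secreted peptidase inhibitor, are found around vessels of many organs and are often described as a reserve population that can give rise to more specialised fibroblasts. Fibroblasts also sense interferons and cytokines, present antigen fragments on MHC class I and release chemokines and complement proteins.

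Members made up 11.5% of the GLPG0187 library (95% exact Clopper-Pearson interval 10.5 to 12.4) and 12% of the vehicle library (10.8 to 13.2). These intervals cover counting error only, and the difference lay inside them. Of the Xist-only cells, 14.6% and 14.3% were members, and of the Y-only cells 9.30% and 9.95%. Competing gates for the Gdf10 set and the Prss35 set were built in the same way, and over the cells of the 3 gates together members made up 26.2% (24.2 to 28.2, 504 of 1926) in the GLPG0187 library and 21.3% (19.4 to 23.4, 355 of 1663) in the vehicle library. That second share was 32.6% and 23.4% of Xist-only cells, and 21.7% and 18.4% of Y-only cells. The Gdf10 and Hsd11b1 gate held 485 and 511 cells, and the Prss35 and Tbx20 gate 937 and 797 cells. The enzymatic digestion and the sort against debris can also set such shares.

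All values are depth-corrected whole numbers, not raw counts of molecules. Members had a median total of 13714 under GLPG0187 and 13672 under vehicle, and a median of 3304 and 3185 genes above 0, against medians of 3773 and 3788 genes over all cells of the libraries. How deeply each cell was sequenced is unknown. The libraries shared 5 cell barcodes, and 0 barcodes were members in both. Doublet calling with Scrublet marked 2 and 0 members.

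The rule drew its line through a continuous range of cells. The marker sum of the members had a median of 34.5 under GLPG0187 and 33 under vehicle, with 80% of cells between 14 and 101 and between 13 and 92. Members with a sum of 6 or 7 numbered 9 and 10, and 7 and 11 cells with a sum of 4 or 5 lay just outside. Of all cells with a sum of at least 6 (972 and 742), 394 and 350 fell short of a competing sum, and 94 and 47 broke a limit. The nearest neighbours were the Gdf10 and Hsd11b1 fibroblasts: 271 and 186 members also had a Gdf10, Hsd11b1 and Lamc3 sum of at least 6, and 77 and 66 members had a marker sum less than 1.5 times that sum.

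Clec3b, which encodes the plasminogen-binding protein tetranectin, was above 0 in 94.2% of GLPG0187 members and 95.2% of vehicle members. It lies on chromosome 9 (chr9:123150946-123157432, plus strand, GRCm38, protein coding). Its mean was 22.3 in GLPG0187 members and 19.7 in vehicle members. It was 2.53 and 2.11 in the Gdf10 and Hsd11b1 gate, and 0.249 and 0.178 in the Prss35 and Tbx20 gate. In cells with Myh11 of at least 10, smooth muscle cells that should lack the gene, Clec3b was above 0 in 4.34% and 2.34% of cells, with medians of 4048 and 4174 genes per cell.

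Pi16 (chr17:29317680-29330593, plus strand) averaged 13.8 in GLPG0187 members and 13.4 in vehicle members, and was above 0 in 81.3% and 77.7% of them. It was not confined to members. Pi16 averaged 1.66 and 1.24 in the Gdf10 and Hsd11b1 gate, with 38.6% and 30.1% of cells above 0. In the Prss35 and Tbx20 gate it averaged 1.36 and 1.59, with 37.6% and 43.2% above 0. Dpep1 (chr8:123186242-123201812, plus strand), a membrane dipeptidase, averaged 10.1 and 9.41 in members. It was 5.61 and 5.19 in the Gdf10 and Hsd11b1 gate, so of the rule's genes it separated these neighbours least. Scara5 (chr14:65666403-65764826, plus strand), a scavenger receptor that binds ferritin, averaged 2.60 and 2.08, and was above 0 in 49.0% and 39.4% of members. All 4 genes were above 0 in 183 of 504 and 85 of 355 members, 3 in 213 and 171, 2 in 87 and 82, and 1 in 21 and 17.

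The members were described further with 3 markers that the rule did not use. These were picked with earlier results of these data known, so they are no independent check of the label. Smoc2 (chr17:14279506-14404790, plus strand), a secreted calcium-binding matrix protein, averaged 8.96 in GLPG0187 members and 8.85 in vehicle members, against 3.14 and 3.68 in the Gdf10 and Hsd11b1 gate and 0.173 and 0.218 in the Prss35 and Tbx20 gate. Igfbp6 (chr15:102144362-102149511, plus strand), which binds insulin-like growth factors, averaged 6.42 and 5.61 in members, against 1.41 and 1.16 and against 0.269 and 0.272 in those gates. Inmt (chr6:55170626-55175043, minus strand), an indolethylamine methyltransferase, averaged 3.01 and 1.94 in members and 1.85 and 1.95 in the Gdf10 and Hsd11b1 gate, so in the vehicle library it did not separate them. General fibroblast genes were high in members: Pdgfra, the PDGF receptor alpha, averaged 5.52 and 5.34, and the small proteoglycan decorin (Dcn) 237 and 253. Dpp4, a marker of Pi16-positive fibroblasts in other mouse tissues, was above 0 in only 3.17% and 3.10% of members. A position in the adventitia cannot be seen in dissociated cells.

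**Figure D1:**
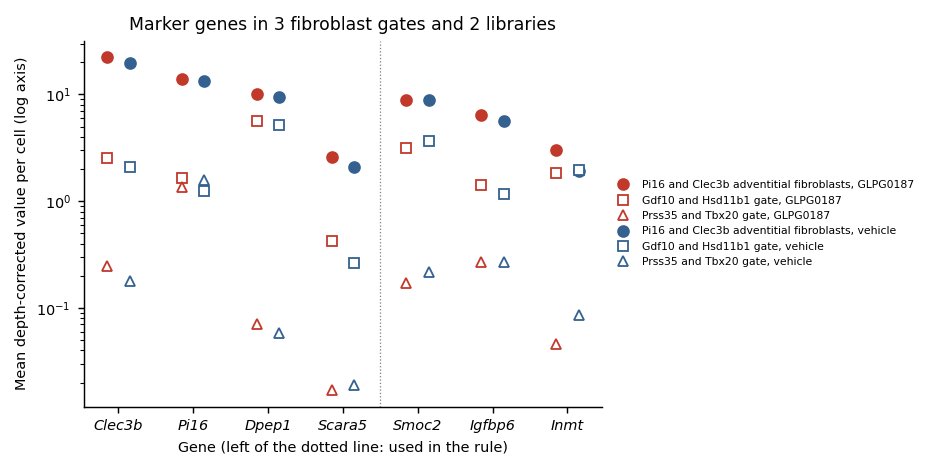
Mean depth-corrected value per cell (log axis) of 7 markers in the Pi16 and Clec3b adventitial fibroblasts (filled circles) and in the Gdf10 and Hsd11b1 (squares) and Prss35 and Tbx20 (triangles) gates, GLPG0187 in red and vehicle in blue. Smoc2 and Igfbp6, which the rule did not use, were higher in members than in both other gates in each library, while Inmt averaged 1.94 and 1.95 in the first 2 gates of the vehicle library.

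Lymphoid markers left little trace in the members, while smooth muscle, pericyte and chondrocyte markers were found in many. Macrophage and endothelial markers were also low, but the rule's limits on the C1q genes, Pecam1 and Cdh5 fixed much of that in advance. Below those limits, 73 GLPG0187 and 41 vehicle members had a C1q sum above 0. The sum of Pecam1 and Cdh5 was above 0 in 42 and 25 members. Of 9 macrophage markers, 1 (Lyz2) passed the minimum summed value of 100 over both libraries that was asked of every gene below. The macrophage list summed to a mean of 0.498 per cell in GLPG0187 members and 0.442 in vehicle members, with 67.7% and 73.2% of cells at 0. Lymphoid markers summed to 0 in 100% and 99.7% of members, and the endothelial list to 0 in 88.9% and 89.0%. Tie1 and Sox10, defining markers of endothelial and Schwann cells, were at 0 in both libraries. The pericyte list summed to a mean of 5.97 in GLPG0187 members and 5.49 in vehicle members, with 14.9% and 19.4% of cells at 0, mostly from Abcc9 (4.47 and 3.96). The chondrocyte list summed to 4.6 and 4.52, with 41.7% and 38.3% of cells at 0, mostly from Comp (2.88 and 3.06) and Sox9 (1.47 and 1.28). The 7 smooth muscle markers summed to 80% ranges of 5.30 to 25.7 in GLPG0187 members and 3.00 to 20.6 in vehicle members. Acta2, smooth muscle actin, was above 0 in 98.8% and 95.2% of members and also in 98.7% and 91.2% of macrophages (cells with a C1q sum of at least 5), which should lack it. The Schwann cell list summed to means of 0.518 and 0.307, mostly from S100b. Of 6 measured smooth muscle markers 4 were higher and 0 lower in GLPG0187 members (median log2 ratio 0.41). This list includes Myh11, which the rule itself held below 10 in members. The GLPG0187 library held more cells with Myh11 of at least 10 (1660 of 4397) than the vehicle library (726 of 2961).

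Within the members, Pi16 varied over cells together with matrix and surface protein genes. Among 5434 genes above 0 in at least 20% of members of both libraries, genes were ranked by the lower of the rank correlations with Pi16 over the cells of each library. By that order Mfap5, a microfibril component, came first at 0.53 in GLPG0187 members and 0.55 in vehicle members. Fbln2, a fibulin of elastic fibres, followed at 0.50 and 0.53, and the surface protein gene Ly6c1 at 0.45 and 0.53. Cd248 (0.44 and 0.43), Nbl1 (0.43 and 0.53), Cd34 (0.41 and 0.56), Anxa3 (0.40 and 0.41), Sema3c (0.39 and 0.49), Tmem100 (0.39 and 0.44) and Fstl1 (0.36 and 0.41) completed the 10 closest. The order for Clec3b, by the same measure, held partly different genes. It opened with the cell-cycle inhibitor gene Cdkn1c at 0.37 and 0.40, followed by the procollagen C-proteinase enhancer gene Pcolce2 (0.35 and 0.37), Ly6c1 (0.40 and 0.35), Mfap5 (0.34 and 0.33) and Fndc1 (0.37 and 0.32). Cells of 1 library share its animals and its depth correction, so these values describe the libraries and carry no test.

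Compared with the Gdf10 and Hsd11b1 gate, 249 of 8371 genes (2.97%) were at least 1.5-fold higher in members in both libraries and 421 (5.03%) were at least 1.5-fold lower, the genes of the rule left out. Ly6c1 averaged 3.23 in GLPG0187 members against 0.130 in that gate, and 1.95 in vehicle members against 0.0235. Fndc1 averaged 1.90 against 0.159 and 1.55 against 0.139. The stem cell antigen gene Ly6a averaged 17.8 against 2.89 and 9.33 against 0.982. Tmem100, Sema3c, the complement component gene C7, Igfbp6, the complement regulator gene Cd55, Gfpt2, Angptl7, Pcolce2 and the versican gene Vcan were the others of the 12 highest, with log2 ratios in the library where they were smaller between 1.98 and 3.25. Of 21 measured genes of a list of Pi16-positive fibroblast genes known from other mouse tissues, 17 were higher and 2 lower in both libraries by a log2 ratio of at least 0.32 (background 7.84% higher and 11.2% lower), with list medians of 1.57 and 1.23.

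Among the 12 genes furthest below the Gdf10 and Hsd11b1 gate was Tnnt2, a troponin of striated muscle, which averaged 0.192 in GLPG0187 members against 1.83 in that gate, and 0.169 in vehicle members against 2.57. Tnfrsf11b, which encodes the decoy receptor osteoprotegerin, averaged 0.339 against 2.92 and 0.206 against 3.40. The osteopontin gene Spp1 averaged 0.524 against 3.31 and 0.823 against 2.98, and Itga8, the integrin alpha-8 subunit, 0.966 against 3.01 and 0.899 against 3.45. Of 12 measured myofibroblast genes, 0 were higher and 8 lower in both libraries (medians -0.71 and -0.78), and of 18 TGF-beta targets 2 were higher and 11 lower (medians -0.67 and -0.49). Integrin subunits were also mostly lower, with 7 of 10 lower and 1 higher in both libraries. Itgb5, a beta partner of alpha-v, averaged 2.68 against 5.24 and 2.81 against 5.56, and Itgav itself 1.22 against 1.83 and 1.19 against 1.56. Of 6 measured smooth muscle markers 0 were higher and 5 lower in both libraries (medians -1.21 and -1.34), and of 5 pericyte markers 0 and 5. The smooth muscle list summed to means of 34.0 and 46.4 in that gate, against 17.4 and 12.9 in members. How far cells with smooth muscle genes in that gate set the differences above was not tested.

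The Prss35 and Tbx20 gate lay further away, with 595 of 9566 genes (6.22%) at least 1.5-fold higher in members in both libraries and 1231 (12.9%) lower. Smoc2, Podn, Inmt, Igfbp6, Svep1, the tissue factor gene F3, Slit3, C7, Cd248, Apod, Fmo2 and the retinol-binding protein gene Rbp4 were the 12 highest. Fmo2, a flavin monooxygenase, averaged 24.0 in GLPG0187 members against 1.66 in that gate, and 24.0 in vehicle members against 1.59. Complement genes stood out: 9 of 12 measured were higher and 2 lower in both libraries (background 9.71% and 26.9% at a log2 ratio of 0.32), with list medians of 2.53 and 2.45. C3, the central complement component, averaged 20.1 in GLPG0187 members against 1.68, and 10.6 in vehicle members against 0.877. Of 17 basement membrane and type VI collagen genes, 15 were higher and 0 lower (medians 0.88 and 0.81), among them Nid1, a nidogen, at 4.87 against 1.03 and 4.26 against 1.10. Lower genes included the cartilage gene Chad (0.115 against 6.65 and 0.0394 against 11.2), Npy (0.139 against 4.95 and 0.0592 against 4.61), the tendon transcription factor gene Scx, Thbs1, Clu and Rgs5.

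Between the treatment groups, 8271 genes reached the minimum summed value in members, and the ratio of GLPG0187 over vehicle was taken on summed values divided by the members' total, with 1 added to each sum. By size alone, 228 genes (2.76%) were at least 1.5-fold higher in GLPG0187 members and 99 (1.2%) at least 1.5-fold lower, and the median log2 ratio of all measured genes was -0.016. The 4 rule genes had log2 ratios between 0.04 and 0.30. Of the genes at least 1.5-fold apart, 69 of the higher and 12 of the lower had a mean of at least 0.5 in the higher library and a log2 ratio of the same sign and above 0.32 in size in both the Xist-only and the Y-only members. For gene lists, a measured gene is called higher or lower from a log2 ratio of 0.32 or -0.32 on, a size reached upward by 8.89% and downward by 8.44% of all measured genes.

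The broadest difference was in genes known to respond to interferons, signalling proteins that cells release on infection and that switch on antiviral genes in the cells they reach. Of 25 measured interferon response genes, 21 were higher and 1 was lower, and the list's median was 0.74. All 9 measured genes of the guanylate-binding protein (GBP) and immunity-related GTPase (IRG) families, which attack intracellular pathogens, were higher (median 1.74). Iigp1, an IRG, averaged 1.33 in GLPG0187 members and 0.265 in vehicle members (log2 ratio 2.30), and was above 0 in 28.0% (24.1 to 32.1) and 9.86% (6.96 to 13.4) of cells. In the Myh11 cells it was above 0 in 11.3% and 6.89%. Ifi47 averaged 0.298 and 0.0676 (2.08), Gbp3 0.294 and 0.0620 (2.18), and Gbp7 1.0 and 0.485 (1.03). These families hold near-identical copies, so the authors' counting could have split reads among them.

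Ifit1, an RNA-binding antiviral protein, averaged 0.657 in GLPG0187 members and 0.180 in vehicle members (log2 ratio 1.83). It was above 0 in few cells of either library, 13.7% of GLPG0187 members and 6.76% of vehicle members. The 10% of members with the highest values held 94.3% of the GLPG0187 sum and, given that low share, all of the vehicle sum. Bst2, the virus-tethering protein tetherin, was far more widespread, with means of 4.96 and 2.68 (0.87) and 87.9% and 77.7% of cells above 0. Irf7, a transcription factor of the interferon response, averaged 0.345 and 0.169 (1.0), Zbp1 0.333 and 0.118 (1.46), and Isg15 1.12 and 0.662 (0.74). Rsad2 was the gene that lay lower, at 0.121 and 0.234, and 1 vehicle cell with a value of 73 held most of its vehicle sum of 83. Its ratio was 2.01 in Xist-only members and -3.54 in Y-only members. The interferon receptor genes Ifnar1, Ifnar2, Ifngr1 and Ifngr2 had log2 ratios between -0.27 and 0.01.

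MHC class I presents peptides from inside the cell to T cells. Of 15 measured genes of this pathway 12 were higher and 0 lower (median 0.51). H2-K1 averaged 9.64 in GLPG0187 members and 4.06 in vehicle members (log2 ratio 1.23), with a median of 7 and 3 per cell. H2-D1 averaged 15.0 and 7.66 (0.96) and H2-Q4 0.897 and 0.341 (1.37). These class I genes are close paralogs. B2m, the shared light chain, has no such copy and averaged 24.5 and 13.2 (0.88), with medians of 20.5 and 12 per cell. The immunoproteasome subunits Psmb9 (0.613 and 0.248, log2 ratio 1.28) and Psmb8 (1.86 and 1.10, 0.74) and the peptide transporter Tap1 (0.266 and 0.155, 0.75) were also higher.

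MHC class II genes had low values in members. Cd74, the class II invariant chain of antigen-presenting cells, averaged 0.452 in GLPG0187 members and 0.177 in vehicle members (log2 ratio 1.32), and all 4 measured class II genes were higher. Cd74 was above 0 in 26.2% and 13.0% of members, but also in 27.4% and 11.6% of the Myh11 cells, and in 99.3% and 90.6% of the macrophages. Whether the values in members are background or low expression was not tested. Cd74 reached at most 22 in a GLPG0187 member and 7 in a vehicle member. For class I, the medians per cell of H2-K1, H2-D1 and B2m were at least 3 in both libraries, while H2-Q4, Psmb9 and Tap1 had medians of 0.

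Many interferon response genes share a short promoter element, the interferon-stimulated response element. Its core was searched as TTTCNNTTTC on both strands in the 250 bases before each gene's start in RefSeq's GRCm38.p6 promoters. The core was present in 3.46% of all 27025 promoters and in 3.28% of the 6524 measured genes with a promoter in that table. Of the 166 genes at least 1.5-fold higher in GLPG0187 members that had one, 28 (16.9%) held it, and of the 74 lower genes 4 (5.41%) did. Of 40 genes of the interferon response, GBP and IRG, and MHC class I lists, 19 (47.5%) held it. The lists differed, with 9 of 18 interferon response genes, 7 of 8 GBP and IRG genes and 3 of 14 MHC class I genes (21.4%). A match describes letters and is not evidence that a factor was bound. The stretches of 120 bases below are shown because they hold the element in 4 genes of the 3 lists, 5′ to 3′ on the gene's strand, with the matches in capitals (GAAANNGAAA is the same element on the other strand).
Ifit1, chr19:34640724-34640843, plus strand: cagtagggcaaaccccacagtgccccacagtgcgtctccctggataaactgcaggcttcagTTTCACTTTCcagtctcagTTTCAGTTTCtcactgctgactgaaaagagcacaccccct
Gbp7, chr3:142530203-142530322, plus strand: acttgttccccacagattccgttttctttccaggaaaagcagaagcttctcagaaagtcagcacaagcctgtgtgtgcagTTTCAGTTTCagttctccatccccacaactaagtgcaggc
Igtp, chr11:58199436-58199555, plus strand: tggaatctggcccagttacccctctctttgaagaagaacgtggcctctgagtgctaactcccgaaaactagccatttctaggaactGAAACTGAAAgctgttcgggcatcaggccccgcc
B2m, chr2:122147468-122147587, plus strand: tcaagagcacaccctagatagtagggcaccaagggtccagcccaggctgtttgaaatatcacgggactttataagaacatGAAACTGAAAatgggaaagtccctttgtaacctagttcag

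The nearer of the elements in Ifit1 began 85 bases before the start of transcription. The elements of Gbp7, Igtp and B2m began 53, 34 and 139 bases before theirs. Igtp, an IRG, averaged 0.379 in GLPG0187 members and 0.110 in vehicle members (log2 ratio 1.74), with a log2 ratio of 3.41 among the Xist-only members and 0.05 among the Y-only members.

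**Figure D2:**
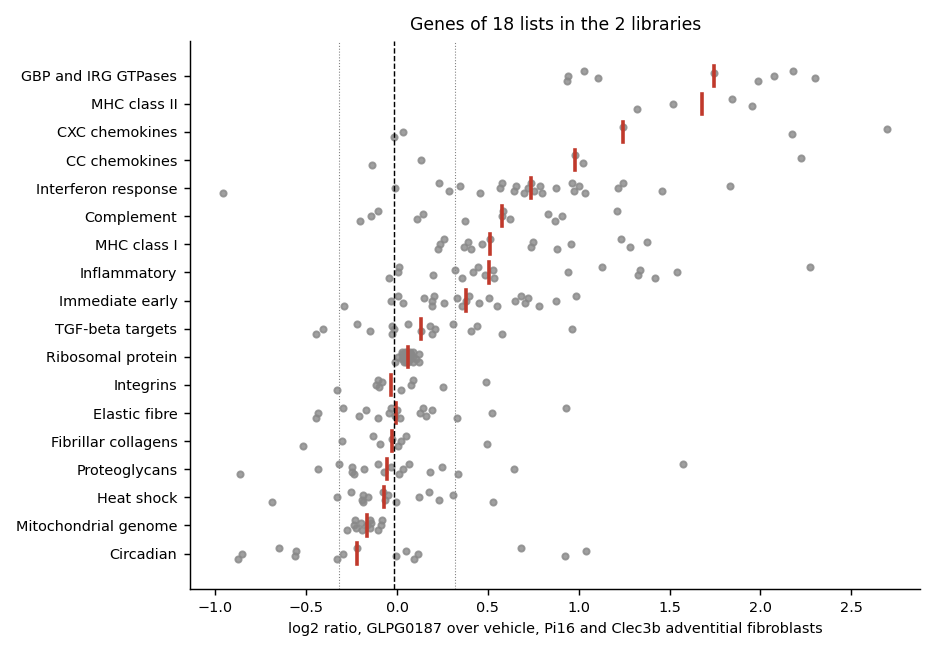
log2 ratio of GLPG0187 over vehicle in Pi16 and Clec3b adventitial fibroblasts (x axis) for each measured gene (grey points) of 18 lists (y axis), with the list median as a red bar, the median of all measured genes dashed and log2 ratios of 0.32 and -0.32 dotted. All 9 GBP and IRG genes lay at or above 0.94, while the 26 ribosomal protein genes and the 18 elastic fibre genes had medians of 0.06 and -0.01.

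Inflammatory genes formed a further group that was higher in GLPG0187 members. Of 18 measured genes 14 were higher and 0 lower (median log2 ratio 0.51). The cytokine gene Il6 averaged 2.56 in GLPG0187 members and 0.946 in vehicle members (1.42), and was above 0 in 25.8% and 13.2% of members against 3.43% and 1.79% of the Myh11 cells. Nfkbiz, a regulator of NF-kappa-B target genes, averaged 1.90 and 0.746 (1.33). Irf1 averaged 1.66 and 0.752 (1.13), Ptgs2, the inducible cyclooxygenase, 2.92 and 1.51 (0.94), and Nfkbia, the NF-kappa-B inhibitor, 8.52 and 6.20 (0.45). Tnfaip2, named by its size among all genes, averaged 1.04 and 0.290 (1.82). Vcam1 (4.40 and 4.34) and Sod2 (0.859 and 0.879) hardly differed.

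Chemokines attract leukocytes. Cxcl1, which acts on neutrophils, averaged 5.92 in GLPG0187 members and 2.47 in vehicle members (log2 ratio 1.2), and was above 0 in 38.5% (34.2 to 42.9) and 22.8% (18.6 to 27.5) of cells against 7.47% and 5.65% of the Myh11 cells. Cxcl2 averaged 1.01 and 0.220 (2.18), and was above 0 in 16.9% and 7.61% of members. The 10% of cells with the highest values held 93.1% of its GLPG0187 sum and, given the low share above 0, all of its vehicle sum. Cxcl14 had the highest ratio under the naming rule, at 1.12 and 0.169 (2.70), yet it was above 0 in only 6.75% and 1.97% of members, so 34 and 7 cells carried it. Ccl7 averaged 0.952 and 0.20 (2.22) and Ccl2 1.34 and 0.651 (1.02). Ccl7 was above 0 in 13.9% and 5.07% of members, in 6.63% and 1.10% of the Myh11 cells and in 79.2% and 54.7% of macrophages. Cxcl12, which retains stem and immune cells in tissue, was the same in both libraries at 10.1 and 10.1.

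An NF-kappa-B element, searched as GGGNNNTTCC on both strands in the same promoters, was found in 5.31% of all promoters and 5.86% of measured genes. It was in 18 of 166 higher genes (10.8%), in 2 of 74 lower genes (2.70%), and in 7 of 20 genes of the inflammatory and chemokine lists (35.0%). The stretches below are shown because they hold it in 3 of the genes with the largest inflammatory differences, with matches in capitals, overlapping matches run together.
Cxcl1, chr5:90891095-90891214, plus strand: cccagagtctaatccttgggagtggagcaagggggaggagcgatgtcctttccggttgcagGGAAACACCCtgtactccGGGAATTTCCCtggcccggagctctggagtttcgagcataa
Cxcl2, chr5:90903741-90903860, plus strand: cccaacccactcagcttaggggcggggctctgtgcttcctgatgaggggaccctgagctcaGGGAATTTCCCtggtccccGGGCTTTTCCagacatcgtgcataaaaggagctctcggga
Il6, chr5:30012990-30013109, plus strand: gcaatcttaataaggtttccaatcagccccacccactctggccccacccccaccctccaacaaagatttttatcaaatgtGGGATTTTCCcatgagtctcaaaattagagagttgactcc

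**Figure D3:**
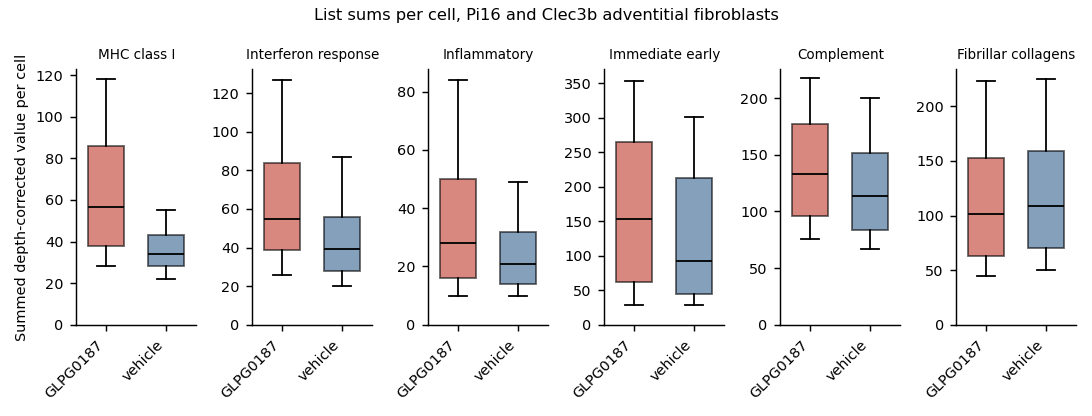
Summed depth-corrected value per cell (y axis) of 6 gene lists in Pi16 and Clec3b adventitial fibroblasts, GLPG0187 (red, 504 cells) beside vehicle (blue, 355 cells). Boxes hold the middle of the cells with the median as a line, whiskers run from the 10th to the 90th percentile, and the MHC class I median of 56.5 in GLPG0187 members lay above the vehicle 90th percentile of 55.

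The MHC class I sums were higher in GLPG0187 members at the low end, the middle and the high end of the cells, and the inflammatory sums mainly in the middle and at the high end. The class I list summed to a 10th percentile, median and 90th percentile of 28, 56.5 and 118.7 in GLPG0187 members, and of 22, 34 and 55 in vehicle members. The 90th percentile of the vehicle members was passed by 50.6% (46.1 to 55.0, 255 of 504) of GLPG0187 members and 9.86% of vehicle members. That share was 71.4% against 10.3% among Xist-only members and 40.1% against 10.8% among Y-only members. For the inflammatory list the 3 percentiles were 10, 28 and 84 in GLPG0187 members and 9.4, 21 and 49.6 in vehicle members. The vehicle 90th percentile of the inflammatory sum was passed by 25.6% (21.8 to 29.6) of GLPG0187 members, of the interferon sum by 24.0% (20.3 to 28.0), and of the fibrillar collagen sum by 9.92% (7.45 to 12.9).

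Inflammatory and interferon genes varied nearly independently over cells. Over member cells the list sums of inflammatory and interferon genes had a rank correlation of 0.12 in GLPG0187 members and 0.09 in vehicle members. Interferon and MHC class I sums correlated at 0.49 and 0.29, and inflammatory and immediate early sums at 0.65 and 0.61. These are descriptions over cells that share a library.

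Complement genes, which tag cells and microbes for removal, were higher for 8 of 13 measured members and lower for 0 (median log2 ratio 0.58). C3 averaged 20.1 in GLPG0187 members and 10.6 in vehicle members (0.91), and was above 0 in 76.4% and 60.0% of members against 9.04% and 5.51% of the Myh11 cells. C4b averaged 7.35 and 3.99 (0.87), the classical pathway protease C1s1 5.06 and 3.34 (0.58), and the alternative pathway factor Cfb 0.538 and 0.228 (1.21). Serping1, the C1 inhibitor gene, was closer at 39.0 and 35.1 (0.14).

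Immediate early genes, which respond within minutes to growth factors, stress and tissue digestion, were higher for 14 of 23 and lower for 0 (median 0.38). Fosb averaged 8.94 in GLPG0187 members and 5.37 in vehicle members (0.72), Junb 22.5 and 15.2 (0.55) and Nr4a1 11.7 and 8.18 (0.51), while Dusp1 (4.37 and 4.24) and Klf2 (6.20 and 6.28) were close. Heat shock genes did not share this pattern, with 1 of 16 higher and 2 lower (median -0.07), and Hspa1a averaged 1.84 and 2.94 (-0.69).

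Matrix genes, the main product of these fibroblasts, were nearly level over all members. Of 9 fibrillar collagens 1 was higher and 1 lower (median -0.03). Their median was -0.36 in Xist-only members and 0.11 in Y-only members, and 2 of 9 kept their direction in both. Col1a1 averaged 27.4 in GLPG0187 members and 27.7 in vehicle members, Col1a2 44.4 and 43.3, and Col3a1 31.1 and 38.0 (-0.30). Elastic fibre genes had 3 of 18 higher and 2 lower, with elastin (Eln) at 4.56 and 4.57 and fibrillin-1 (Fbn1), the gene mutated in every mouse, at 5.92 and 5.37 (0.13). The 3 higher were Emilin2 (0.93), Efemp1 (0.52) and Mfap2 (0.33), and the lower were Mfap4 (7.82 and 10.5, -0.44) and Ltbp2 (-0.44). Of 17 basement membrane genes 16 lay within 0.32.

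Small proteoglycans of collagen fibrils included the clearest matrix gene that was lower. As a list, proteoglycans were balanced, with 3 of 18 measured genes higher and 3 lower (median log2 ratio -0.05). Aspn, which encodes asporin, a collagen-binding inhibitor of TGF-beta, averaged 3.46 in GLPG0187 members and 6.26 in vehicle members (log2 ratio -0.87), with medians of 2 and 4 per cell, and the ratio was -0.86 in Xist-only members and -0.88 in Y-only members. Fmod averaged 2.82 and 3.78 (-0.44), Lum 26.2 and 30.8 (-0.25) and Bgn 41.2 and 46.3 (-0.18). Prg4 ran the other way, at 4.37 and 2.77. So did the hyaluronan synthase gene Has1, at 1.44 and 0.479 (1.57), but at -0.14 in Xist-only members beside 1.83 in Y-only members. Of 16 measured matrix proteases 3 were higher and 0 lower (median 0.02), and of 13 protease inhibitors 3 were higher and 2 lower (median -0.01). Among them, Adamts4 (0.454 and 0.138, 1.68), Timp1 (4.43 and 2.94, 0.58) and Serpina3n (5.22 and 2.55, 1.02) were higher, while Mmp2, Mmp14 and Timp2 lay within 0.1 of 0. Cst3 was lower, averaging 159 in GLPG0187 members and 205 in vehicle members.

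Integrin alpha-v pairs with beta subunits that bind fibronectin, vitronectin and latent TGF-beta, and it is the named target of the drug. Itgav averaged 1.22 in GLPG0187 members and 1.19 in vehicle members (log2 ratio 0.02), Itgb1 7.92 and 8.52 (-0.12) and Itgb5 2.68 and 2.81 (-0.09). Itgb8, the partner known for activating TGF-beta, averaged 0.448 and 0.315 (0.49) and was the 1 higher subunit of 10, and the collagen receptor subunit Itga11 (-0.33) was the 1 lower. An inhibitor of a protein need not change its transcript, and protein was not measured. Among 12 measured ligands 2 were higher and 2 lower, and Ctgf, a ligand that is also a TGF-beta target, averaged 12.6 and 16.6 (-0.41).

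Of 17 measured TGF-beta targets, 4 were higher and 2 lower (median log2 ratio 0.13). Among those higher, Acta2 averaged 7.83 in GLPG0187 members and 5.20 in vehicle members (0.58), Tagln 6.05 and 4.42 (0.44) and Tgif1 0.345 and 0.256 (0.41), and those lower were Ltbp2 and Ctgf. Acta2 and Tagln are smooth muscle genes, for which the background in members was high, and the part of that background in their difference was not tested. The feedback inhibitor Smad7 averaged 2.46 and 2.70 (-0.15). Among ligands and receptors Tgfb1 was lower, at 0.484 and 0.668 (-0.48), while Tgfb2, Tgfb3, Tgfbr1 and Tgfbr2 lay within 0.2 of 0.

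The 12 genes that met the naming rule on the lower side had varied roles. Id1, an inhibitor of transcription factors and a BMP target, averaged 1.72 in GLPG0187 members and 2.86 in vehicle members (log2 ratio -0.75). Heyl, a Notch target, averaged 0.591 and 1.04 (-0.83), and Spry1, a feedback inhibitor of receptor tyrosine kinases, 1.09 and 1.91 (-0.82). Hist1h1c (-0.92), Plekhh2 (-0.74), Foxs1 (-0.73), Ccdc34 (-0.73), Tmem119 (-0.65), Hist1h1e (-0.65) and the clock gene Arntl (0.327 and 0.510, -0.65) were the others beside Aspn and Hspa1a. Growth factor receptors as a list had 4 of 18 higher and 1 lower (median 0.04). On the higher side, Rasl11a (1.43 and 0.580, 1.28) and Gja1, the gap junction protein connexin 43 (0.764 and 0.315), belonged to none of the groups above.

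Clock genes ran in both directions, with 3 of 15 higher and 6 lower (median -0.22). Per1 averaged 0.240 in GLPG0187 members and 0.437 in vehicle members (-0.87), and Nr1d1, whose product represses Arntl, 0.454 and 0.217 (1.04), with -0.12 in Xist-only members beside 1.29 in Y-only members. Glucocorticoid-responsive genes had 5 of 20 higher and 5 lower, with Tsc22d3 at 3.16 and 5.37 (-0.77) and Zbtb16 at 1.12 and 0.620 (0.84). Ribosomal protein genes (26 of 26) and genes of the mitochondrial genome (13 of 13) all lay within 0.32, with medians of 0.06 and -0.16.

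Genes that mark Pi16-positive fibroblasts in other mouse tissues had 6 of 22 higher and 0 lower (median 0.19). The median was -0.17 in Xist-only members and 0.36 in Y-only members, and 10 of 22 kept their direction in both. Ly6a averaged 17.8 in GLPG0187 members and 9.33 in vehicle members (0.92), with 88.1% and 73.0% of cells above 0, and Ly6c1 3.23 and 1.95 (0.71). Ly6a and Ly6c1 are also known to respond to interferon. Gfpt2 (4.80 and 3.14, 0.60) and Heg1 (3.03 and 1.87, 0.68) were higher too, while Cd34 (8.44 and 8.22), Sema3c (1.52 and 1.52) and Cd55 (1.87 and 1.99) were close.

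The animals behind the Xist-only and Y-only members contributed unequally to these differences. The interferon response list had a median log2 ratio of 1.24 in Xist-only members and 0.43 in Y-only members, the GBP and IRG list 2.47 and 0.53, and MHC class I 0.93 and 0.41. All 9 GBP and IRG genes, and 14 of 15 MHC class I genes, kept their direction in both. So did 19 of 25 interferon response genes, 11 of 18 inflammatory, 9 of 13 complement and 17 of 23 immediate early genes. Isg15 had 2.00 in Xist-only members and -0.14 in Y-only members, and Ifit3 2.18 and -0.71, so for these genes only the Xist-only members were higher. The inflammatory list had medians of 0.34 in Xist-only members and 0.51 in Y-only members, and its genes differed. Irf1 had 1.13 and 1.05 and Nfkbia 0.46 and 0.35. Il6 had 0.44 in Xist-only members and 2.01 in Y-only members, Ptx3, a secreted pattern recognition protein, -0.13 and 3.27, and Tnfaip6 -0.23 and 1.78. Whether sex, the individual animals or their numbers in the pools set these gaps was not tested.

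**Figure D4:**
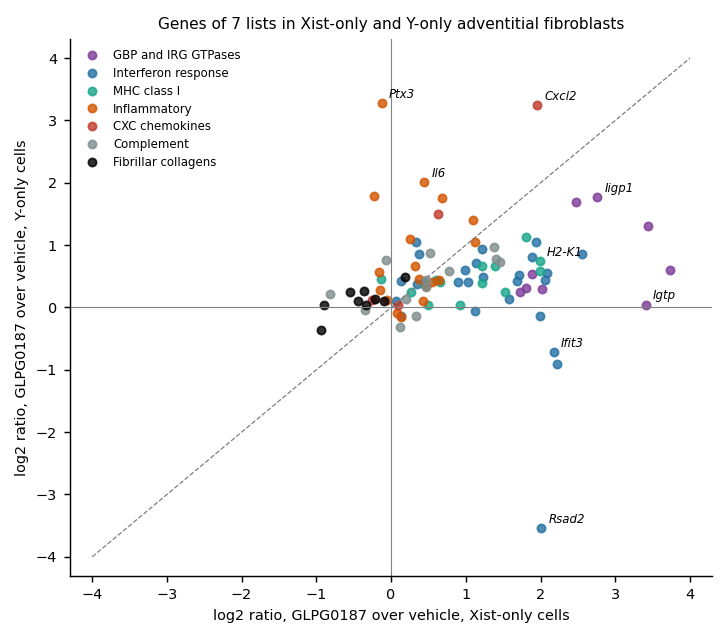
log2 ratio of GLPG0187 over vehicle in Xist-only members (x axis) and in Y-only members (y axis) for the measured genes of 7 lists in Pi16 and Clec3b adventitial fibroblasts, with equal ratios on the dashed line. GBP and IRG genes (purple) lay right of the line and Ptx3 and Il6 above it, and Cxcl14, at 0 in the vehicle Xist-only members, is not drawn.

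The same lists were computed in the neighbouring gates of the same libraries. Interferon response genes had medians of 0.74 in members, 0.80 in the Gdf10 and Hsd11b1 gate and 0.32 in the Prss35 and Tbx20 gate, MHC class I 0.51, 0.73 and 0.46, and inflammatory genes 0.51, 0.72 and 0.25. Iigp1 had log2 ratios of 2.30, 3.44 and 1.62, and H2-K1 1.23, 1.29 and 1.0. Complement genes had medians of 0.58, 0.20 and 0.03, with C4b at 0.87, 0.27 and 0.12 and Cfb at 1.21 in members and 0.24 in the Gdf10 and Hsd11b1 gate. In the Gdf10 and Hsd11b1 gate 18 of 22 measured interferon genes were higher and 0 lower, with 6.89% of all its genes higher and 11.5% lower at that size. In the Prss35 and Tbx20 gate 13 of 25 were higher and 0 lower, with 3.92% and 7.86% of all genes. Genes at least 1.5-fold higher and lower made up 2.35% and 2.07% of 8895 in the Gdf10 and Hsd11b1 gate, and 1.15% and 1.4% of 10523 in the Prss35 and Tbx20 gate. With 1 library per group, differences between gates in these ratios could not be tested.

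**Figure D5:**
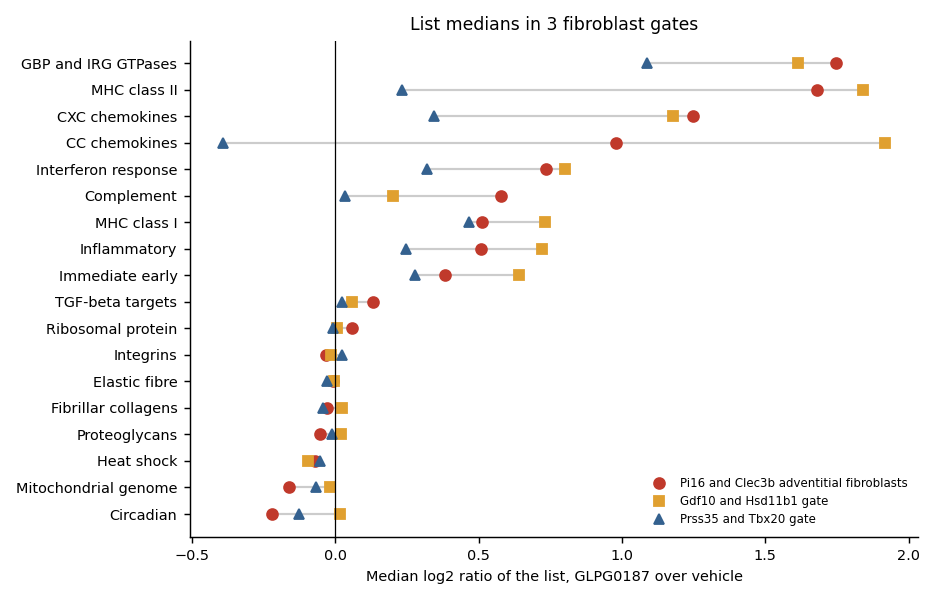
Median log2 ratio of GLPG0187 over vehicle (x axis) of 18 gene lists (y axis) in Pi16 and Clec3b adventitial fibroblasts (red circles), the Gdf10 and Hsd11b1 gate (yellow squares) and the Prss35 and Tbx20 gate (blue triangles). The complement median was 0.58, 0.20 and 0.03 in these gates, and the matrix and integrin lists lay near 0 in all 3.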

How the data were processed

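Each group was 1 single-cell library. The authors deposited whole-number, depth-corrected values per gene and cell, used here as a score, not as counts, so the raw depth is unknown and no count model was used, although the planned design was kept. Cell Ranger, Seurat and mm10 are named per the submitters' processing notes. The sources used here do not give how depth was corrected or cells and genes were filtered. Of 18920 genes, those with summed values of at least 100 over the members of both libraries were measured. Sums were divided by the members' total and log2 ratios taken after adding 1 to each sum. Called means at least 1.5-fold. Genes of the rule were left out of the gate comparisons and the correlations, but not of the list counts between the groups. Shares carry exact 95% intervals, and no p-value was computed, since cells are not replicates. Named genes were the 12 highest and 12 lowest that were 1.5-fold apart, had a mean of at least 0.5 and kept their direction, with a log2 ratio above 0.32 in size, in Xist-only and Y-only members; the 12 highest and 12 lowest against each other gate with a mean of at least 1; the genes of fixed lists; and the 10 closest to Pi16 and to Clec3b. Members and lists were chosen with earlier results of these data known. Alternatives changed the marker sum, the exclusions, doublets (Scrublet in scanpy 1.11.5), scaling, the added value, capping, the filter and the cells used. Ratios were tested on simulated data. Python 3.11.15, numpy 2.4.6, scipy 1.17.1, pandas 2.3.3 and matplotlib 3.10.9 were used, with RefSeq promoters (GRCm38.p6) and GENCODE gene positions (GRCm38). A few list members are not reported here by name.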

Additional observations from a re-analysis of the deposited data

Results flagged for a closer look

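In 4 lists the median log2 ratio of GLPG0187 over vehicle had opposite signs in Xist-only and Y-only members, which come from different animals of the same pools. Genes of Pi16-positive fibroblasts had a median of -0.17 in Xist-only members and 0.36 in Y-only members. Fibrillar collagens had -0.36 and 0.11, led by Col3a1 at -0.90 and 0.04 and Col1a1 at -0.55 and 0.25. Matrix proteases had -0.11 and 0.12. Glucocorticoid-responsive genes had 0.21 and -0.17, with Fkbp5 at 1.08 and -0.23 and Ddit4 at -0.27 and -1.41. None of these differences was tested, and lists were looked at only where at least 5 genes were measured and both medians were at least 0.1 in size.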

How the results depend on the processing

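No paired analysis was possible because each group is 1 library. Shares of all cells (GLPG0187 before vehicle) were 14.6% and 14.3% for Xist-only cells, 9.30% and 9.95% for Y-only cells, 7.82% and 9.19% with stricter exclusions, and 8.71% and 8.41% where the marker sum had to be at least 2 times the Gdf10, Hsd11b1 and Lamc3 sum, an alternative chosen after seeing the data. Shares among the 3 gates were 32.6% and 23.4% of Xist-only cells and 21.7% and 18.4% of Y-only cells. With no filter on low values, 1757 genes were at least 1.5-fold higher and 1853 lower. In Xist-only members list medians became -0.17 for Pi16-positive fibroblast genes, -0.36 for fibrillar collagens, 0.62 for CXC chemokines, 1.24 for interferon response, 2.47 for GBP and IRG genes and 0.93 for MHC class I. The GBP and IRG median was 0.53 in Y-only members, 1.37 with no filter and 1.37 at 2 times the competing sum. CXC chemokines had 2.18 and CC chemokines 0.35 with no filter, and stricter exclusions gave 0.54 for CC chemokines and 2.13 for MHC class II. A marker sum of at least 4 turned MHC class II round to -1.02 (Cd74 -1.73, H2-Aa -0.73, H2-Ab1 -0.46, H2-Eb1 -1.31), because 1 added vehicle cell had a Cd74 value of 473. Single genes that changed sign in Xist-only members were C7 (-0.064), Ccl11 (-0.68), Cry1 (0.20), Has1 (-0.14), Nr1d1 (-0.12), Ptx3 (-0.13), Rsad2 (2.01), Sfrp4 (-0.21), Spp1 (1.71) and Tnfaip6 (-0.23). In Y-only members Ifit3 (-0.71), Ifit3b (-0.91) and Isg15 (-0.14) did. Stricter exclusions turned Ifit3b to -0.11 and Spp1 to 1.11, capping turned Rsad2 to 0.80, and 2 times the competing sum turned Spp1 to 1.34. Except for MHC class II, the cause of these shifts was not tested. Doublet removal, a marker sum of at least 8, median-of-ratios scaling and 10 as the added value left every list median, share and count within the limits used.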

Other observations

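Other gene groups in the members differed less between the libraries. Hk2, the hexokinase that starts glycolysis, averaged 1.75 in GLPG0187 members and 0.775 in vehicle members (log2 ratio 1.16), yet of 14 glycolysis genes 2 were higher and 1 lower. The haem-degrading enzyme Hmox1 averaged 0.823 and 0.428 (0.92), with 3 of 9 iron-handling genes higher and ferritin heavy chain (Fth1) at 126 and 127. Among WNT modulators 4 of 11 were higher and 1 lower, with Wnt5a at 2.43 and 1.83 (0.40) and Sfrp1 at 7.83 and 6.55 (0.24). Of 10 genes of the insulin-like growth factor axis 1 was higher and 1 lower, with Igfbp5 at 13.6 and 17.4 (-0.37). Of 27 transcription factors of mesenchyme 1 was higher and 3 lower, among them Gata4 (0.206 and 0.310, -0.60) and Tbx18 (0.123 and 0.214, -0.81). Ntrk2, a neurotrophin receptor, averaged 0.704 and 0.389 (0.84).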
